A study of Rattus norvegicus with 6 samples.

Results

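Mast cell genes were followed in prostate RNA of rats (Rattus norvegicus) that had carried testosterone and estradiol pellets and of control rats. The members were 10 genes taken by symbol (Cpa3, Cma1, Tpsab1, Tpsb2, Mcpt1, Ms4a2, Fcer1a, Kit, Hdc and Gata2), and each of them matched 1 row among the 32883 genes of the deposited table. The hormone group held 3 prostate tissues from rats that wore 4 pellets under the skin for 4 weeks, each loaded with 2.5 mg estradiol and 25 mg testosterone, to induce benign prostatic hyperplasia. The control group held 3 prostate tissues from rats that had a skin incision closed with staples and no pellet. The sources used here do not give strain, age or prostate lobe, nor whether the tissues of a group were from different animals. The p-values therefore measure only how these tissues vary. One label names hyperplasia for the controls too and was not used for grouping.

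Mast cells are tissue-resident immune cells that store proteases, histamine and, in rodents, serotonin in granules. Crosslinking of IgE on their high-affinity IgE receptor releases these stores, and the cells depend for their survival on the receptor tyrosine kinase Kit. They lie mainly in connective tissue around vessels, nerves and smooth muscle, and the prostate stroma holds them too.

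Total counts were 13744680 to 15949500 in hormone libraries and 12931982 to 15809858 in controls. Control 1 stood apart in several gene sets. Its summed level of 10 smooth muscle markers was 10595 CPM (counts scaled to a common library total, with TMM correction), the highest of all libraries, and its summed level of 10 macrophage markers was 440 CPM, the lowest. Control 3 had 23734 CPM over 7 seminal vesicle markers, against 1122 to 8971 CPM in the other libraries. Results that change are given with and without these libraries. Of the mast cell genes all but Mcpt1 had counts in every library. In bulk tissue, fewer mast cells and less RNA per mast cell cannot be told apart.

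The 7 members tested that encode granule proteases, histidine decarboxylase or the mast cell chains of the IgE receptor had lower mean levels in the hormone libraries, by 2.37-fold for Ms4a2 to 3.50-fold for Cpa3. No member passed the edgeR count test at an adjusted p under 0.05 over all genes tested (0 of 9, where 0.886% of genes were called lower). These 7 granule and IgE receptor members (Cpa3, Cma1, Tpsab1, Tpsb2, Ms4a2, Fcer1a and Hdc) summed to 21.8, 20.6 and 11.6 CPM in hormone libraries 1 to 3, against 27.6, 73.6 and 59.9 CPM in controls 1 to 3. All hormone libraries lay below all controls, with control 1 closest to them. Kit and Gata2, which other prostate cells also use, were lower by 1.58-fold and 1.47-fold. Mcpt1 had too few counts to be tested.

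**Figure D1:**
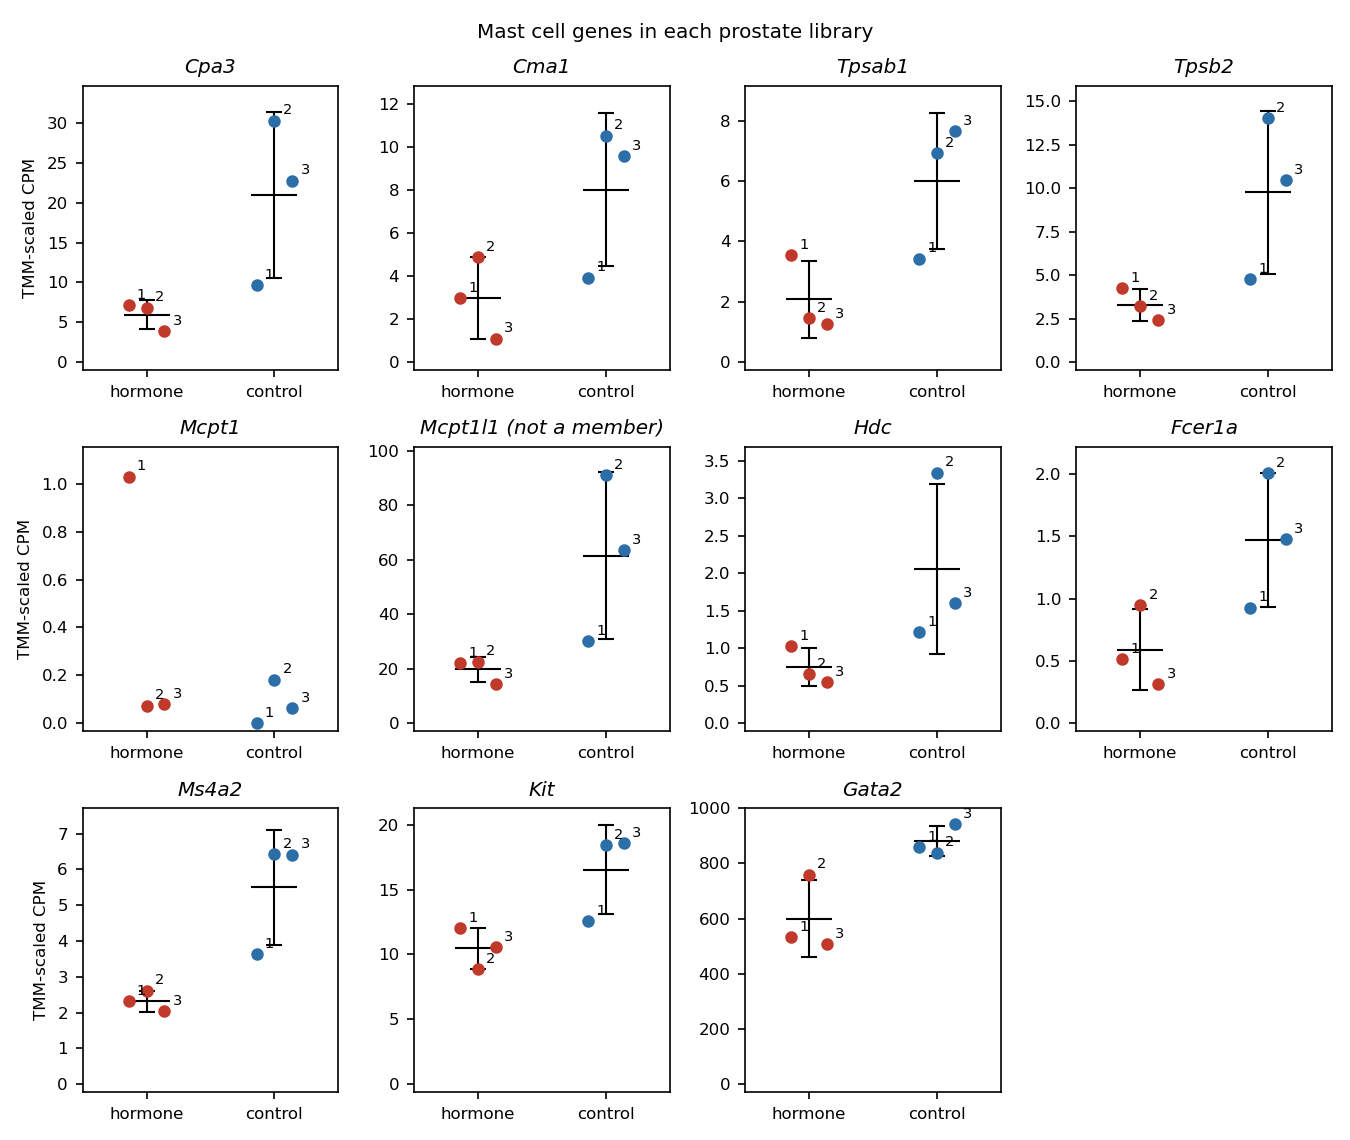
TMM-scaled CPM (vertical axes, linear) of the 10 mast cell genes and of Mcpt1l1 in each library, hormone left and control right. Points are numbered by library, and bars give mean and SD (n = 3 per group, none for Mcpt1). Control 1 is the lowest control for Cpa3, at 9.70 CPM, above hormone 1 at 7.15 CPM.

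Cpa3 encodes carboxypeptidase A3, a zinc exopeptidase of the mast cell granule. It had 7.15, 6.83 and 3.91 CPM in hormone libraries 1 to 3, against 9.70, 30.3 and 22.8 CPM in controls 1 to 3. The groups did not overlap, but control 1 was much nearer to the hormone libraries than to the other controls. The log2 fold change was -1.81 ± 0.43 (SE; edgeR adjusted p = 0.0680). Without control 1 it was -2.15 ± 0.28 and the gene passed (edgeR adjusted p = 0.0275).

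Cma1, mast cell chymase, had 2.96, 4.87 and 1.09 CPM in hormone libraries 1 to 3, against 3.92, 10.5 and 9.56 CPM in controls 1 to 3. Hormone 2 lay above control 1, so the groups overlapped. Its log2 fold change was -1.42 ± 0.55 (edgeR adjusted p = 0.186), and -1.75 without control 1 (edgeR adjusted p = 0.142). Cpa3 (ENSRNOG00000011181) lies on chromosome 2 at 105016626 to 105047984 and Cma1 (ENSRNOG00000020563) on chromosome 15 at 34601037 to 34603819, in the coordinates of the deposited table (genome build not given in the sources).

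Tpsb2 and Tpsab1 encode tryptases, trypsin-like proteases that form tetramers on granule heparin. Tpsb2 had 4.25, 3.20 and 2.42 CPM in hormone libraries 1 to 3, against 4.78, 14.0 and 10.5 CPM in controls 1 to 3. Its groups did not overlap, by a narrow gap between hormone 1 and control 1, and its log2 fold change was -1.56 ± 0.41 (edgeR adjusted p = 0.0887). Tpsab1 had 3.54, 1.45 and 1.25 CPM in hormone libraries 1 to 3, against 3.42, 6.92 and 7.64 CPM in controls 1 to 3. Here hormone 1 lay just above control 1, and the log2 fold change was -1.51 ± 0.48 (edgeR adjusted p = 0.131). Without hormone 1 it was -2.15 (edgeR adjusted p = 0.109). Without control 1, Tpsb2 passed (edgeR adjusted p = 0.0326) and Tpsab1 did not (0.0979).

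The tryptases lie near each other on chromosome 10, Tpsab1 (ENSRNOG00000024181) at 14701253 to 14703668 and Tpsb2 (ENSRNOG00000018611) at 14722756 to 14724600. They are similar in sequence, and the sources do not say how reads shared between them were counted, so the split between them is uncertain. With both rows summed before the fit, an alternative added after seeing the data, the log2 fold change was -1.55 ± 0.41 (edgeR adjusted p = 0.0884).

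The row named Mcpt1 was almost empty, while a neighbouring gene of the same family, Mcpt1l1, held more counts than any member protease. Mcpt1 (ENSRNOG00000020625) had 16, 1 and 1 counts in hormone libraries 1 to 3, against 0, 3 and 1 counts in controls 1 to 3. Its counts came mostly from hormone 1, and the 0 in control 1 allows up to 0.214 CPM (3 counts, counting error only). The row spans 34862266 to 35034622 on chromosome 15 in the table's coordinates, over 172357 bases, and so covers Mcpt1l3 and Mcpt1l4, which had 1 and 43 counts over all libraries.

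Mcpt1l1 (ENSRNOG00000053494), no member by the rule, lies at 34609776 to 34612432 on the same chromosome and had 344, 311 and 185 counts in hormone libraries 1 to 3, against 421, 1499 and 992 counts in controls 1 to 3. RefSeq (assembly GRCr8) gives Mcpt1l1 the synonyms Mcpt1, rMCP-1 and rMCP-I, the names of the beta-chymase of rat connective tissue mast cells, and gives its own Mcpt1 entry the names of both this chymase and rMCP-II. Scaled, Mcpt1l1 had 22.1, 22.6 and 14.5 CPM in hormone libraries 1 to 3, against 30.0, 91.1 and 63.7 CPM in controls 1 to 3. All hormone libraries were below all controls, and the log2 fold change was -1.64 ± 0.39 (edgeR adjusted p = 0.0665). Summed with Mcpt1, Mcpt1l3 and Mcpt1l4 (added after seeing the data), it was -1.59 ± 0.38 (edgeR adjusted p = 0.0687). Without control 1, Mcpt1l1 passed with -1.97 ± 0.24 (edgeR adjusted p = 0.0255).

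The start regions of 5 of these protease genes are shown, to set Cpa3, Cma1, Mcpt1l1 and Tpsb2, whose mean levels were lower in the hormone libraries, beside Mcpt1, which held few counts. Tpsb2 is shown as a window without the letters searched. They come from RefSeq (build GRCr8), each with 250 bases before and 50 after the gene start, 5′ to 3′ on the gene's strand, at chr2:104673188-104673487 (minus strand, Cpa3), chr15:33390084-33390383 (minus, Cma1), chr15:33841356-33841655 (plus, Mcpt1), chr15:33876846-33877145 (minus, Mcpt1l1) and chr10:14886060-14886359 (plus, Tpsb2). Capitals mark letters that GATA factors are known to bind, searched on both strands: AGATAA, its variant AGATAG, the related TGATAA, and its variant TGATAG.
Cpa3: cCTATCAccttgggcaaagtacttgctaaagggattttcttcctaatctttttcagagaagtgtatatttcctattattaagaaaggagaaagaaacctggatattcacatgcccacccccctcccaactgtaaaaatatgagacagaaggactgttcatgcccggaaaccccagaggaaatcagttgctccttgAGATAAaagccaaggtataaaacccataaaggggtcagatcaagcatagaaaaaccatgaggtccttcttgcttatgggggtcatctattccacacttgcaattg
Cma1: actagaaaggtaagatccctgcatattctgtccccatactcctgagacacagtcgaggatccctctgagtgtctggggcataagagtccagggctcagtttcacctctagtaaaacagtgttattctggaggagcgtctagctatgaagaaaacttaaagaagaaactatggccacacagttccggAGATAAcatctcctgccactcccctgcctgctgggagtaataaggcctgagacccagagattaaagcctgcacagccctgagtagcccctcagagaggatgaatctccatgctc
Mcpt1: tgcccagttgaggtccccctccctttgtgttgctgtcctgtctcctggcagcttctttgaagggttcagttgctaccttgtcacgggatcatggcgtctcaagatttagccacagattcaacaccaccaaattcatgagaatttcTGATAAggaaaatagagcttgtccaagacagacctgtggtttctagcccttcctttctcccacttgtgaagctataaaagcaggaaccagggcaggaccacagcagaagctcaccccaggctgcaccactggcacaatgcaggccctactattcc
Mcpt1l1: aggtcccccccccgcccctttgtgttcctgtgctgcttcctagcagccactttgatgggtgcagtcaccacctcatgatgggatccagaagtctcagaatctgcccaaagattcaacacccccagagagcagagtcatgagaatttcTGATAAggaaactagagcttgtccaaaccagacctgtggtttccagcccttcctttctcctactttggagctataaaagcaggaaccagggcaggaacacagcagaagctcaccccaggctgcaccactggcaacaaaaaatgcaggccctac
Tpsb2: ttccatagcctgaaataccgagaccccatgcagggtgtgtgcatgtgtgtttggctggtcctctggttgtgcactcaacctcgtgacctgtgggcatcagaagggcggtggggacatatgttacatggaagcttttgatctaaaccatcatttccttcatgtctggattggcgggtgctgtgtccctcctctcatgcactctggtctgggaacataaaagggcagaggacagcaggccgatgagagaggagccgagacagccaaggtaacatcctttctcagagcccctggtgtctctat
Cpa3 held AGATAA starting 55 bases before the gene start, and TGATAG on the opposite strand (printed as CTATCA) 249 bases before. Cma1 held AGATAA 64 bases before its start. TGATAA stood 105 bases before the start of Mcpt1 and 103 bases before that of Mcpt1l1, and the windows of these 2 genes were identical over 77.9% of 317 aligned columns. RefSeq start regions were found for 9 of the 10 members, all but Ms4a2, and 4 of the 9 (Cpa3, Cma1, Mcpt1 and Fcer1a) held such letters and 5 (Tpsb2, Tpsab1, Kit, Hdc and Gata2) did not, where 30.3% of all 33469 start regions of this length did. These matches are a description of the letters only.

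Hdc encodes histidine decarboxylase, the enzyme that makes histamine. It had 16, 9 and 7 counts in hormone libraries 1 to 3, against 17, 55 and 25 counts in controls 1 to 3. In scaled units these were 1.03, 0.654 and 0.547 CPM in hormone libraries, against 1.21, 3.34 and 1.60 CPM in controls, with no overlap of the groups. The log2 fold change was -1.45 ± 0.49 (edgeR adjusted p = 0.145), and -1.71 without control 1 (edgeR adjusted p = 0.120).

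Other genes of amine synthesis and storage were sparse. Slc18a2, the vesicular monoamine transporter that loads histamine and serotonin into granules, had 7, 6 and 0 counts in hormone libraries 1 to 3, against 7, 41 and 20 counts in controls 1 to 3, too few to be tested. Tph1, which starts serotonin synthesis, had 2.00, 0.654 and 0.703 CPM in hormone libraries 1 to 3, against 1.21, 4.68 and 2.18 CPM in controls 1 to 3 (edgeR adjusted p = 0.279). Hormone 1 lay above control 1 for Tph1. Its counts were 31, 9 and 9 in hormone libraries 1 to 3, against 17, 77 and 34 in controls 1 to 3. Tph1 thus reached the minimum for testing through the controls. Srgn, the proteoglycan core of granules in mast cells and other leukocytes, ran the other way with a log2 fold change of 0.44 ± 0.26 (edgeR adjusted p = 0.352). Of the 9 genes tested in the granule matrix and amine list, 0 passed by edgeR or DESeq2 and 1 had an unadjusted p under 0.05. Of all genes, edgeR called 2.39% higher and 0.886% lower, and DESeq2 5.66% higher and 3.68% lower. The histamine-degrading Hnmt is listed at 0 in all libraries and Aoc1 had 3 counts in the hormone libraries together, against 5 in the controls. Ndst2 of the same list was also at 0, as were 13031 of the 32883 genes. A listed 0 is therefore not read as absence of expression, here or below.

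The IgE receptor of mast cells has an alpha chain that binds IgE (Fcer1a), a beta chain that amplifies the signal (Ms4a2) and a gamma chain shared with other Fc receptors (Fcer1g). Ms4a2 had 2.32, 2.62 and 2.03 CPM in hormone libraries 1 to 3, against 3.64, 6.44 and 6.42 CPM in controls 1 to 3. The groups were apart, and the hormone libraries lay close together. The log2 fold change was -1.24 ± 0.30 (edgeR adjusted p = 0.0689), and -1.47 ± 0.22 without control 1, where the gene passed (edgeR adjusted p = 0.0332).

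Fcer1a had only 8, 13 and 4 counts in hormone libraries 1 to 3, against 13, 33 and 23 counts in controls 1 to 3. That corresponds to 0.515, 0.945 and 0.313 CPM in hormone libraries and 0.928, 2.00 and 1.48 CPM in controls, with hormone 2 just above control 1. Its log2 fold change was -1.31 ± 0.49 (edgeR adjusted p = 0.179). Fcer1g, in contrast, had 61.7, 37.9 and 44.8 CPM in hormone libraries 1 to 3, against 31.8, 28.1 and 18.2 CPM in controls 1 to 3, a log2 fold change of 0.89 ± 0.25 (edgeR adjusted p = 0.103). Fcer1g is also made by macrophages and natural killer cells. Ms4a2 (ENSRNOG00000020993) lies on chromosome 1 at 227957302 to 227965386 and Fcer1a (ENSRNOG00000009177) on chromosome 13 at 91730925 to 91737053.

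Kit, the stem cell factor receptor, had 12.0, 8.87 and 10.5 CPM in hormone libraries 1 to 3, against 12.6, 18.4 and 18.6 CPM in controls 1 to 3. All hormone libraries were below all controls, although hormone 1 and control 1 almost met. The log2 fold change was -0.66 ± 0.21 (edgeR adjusted p = 0.135), and -0.82 without control 1 (edgeR adjusted p = 0.0597). Kit also marks interstitial cells of Cajal and melanocytes. Of 5 interstitial cell markers tested, Kit among them, 2 had positive and 3 negative fold changes (median -0.14, 0 passed by edgeR). Among these, Ano1 had a log2 fold change of 0.88 (edgeR adjusted p = 0.0814) and Etv1 -0.20 (0.618). DESeq2 called Ano1 higher (adjusted p = 0.00958), where it called 5.66% of genes higher. Of the other melanocyte markers, Pmel had 0.07 (edgeR adjusted p = 0.908), while Tyr, Tyrp1 and Mlana were at 0 in all libraries.

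Gata2, a zinc finger transcription factor of mast cell and blood progenitors, is known also from endothelium and, in human prostate, from luminal epithelium. It was by far the most abundant member, with 533, 759 and 506 CPM in hormone libraries 1 to 3, against 860, 839 and 943 CPM in controls 1 to 3. The groups did not overlap, and control 1 was in the range of the other controls, unlike for the granule genes. Gata2 (ENSRNOG00000012347) lies on chromosome 4 at 120133713 to 120142488, Kit (ENSRNOG00000002227) on chromosome 14 at 35072108 to 35149610 and Hdc (ENSRNOG00000010262) on chromosome 3 at 119057517 to 119075619. The Gata2 log2 fold change was -0.55 ± 0.19 (edgeR adjusted p = 0.145), and -0.57 without control 1 (edgeR adjusted p = 0.176).

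**Figure D2:**
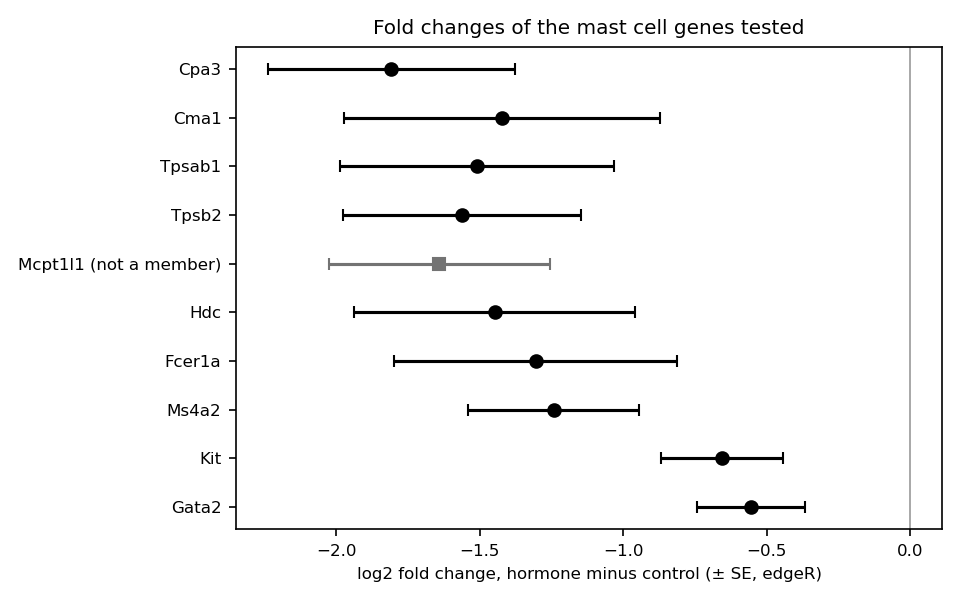
Log2 fold changes, hormone minus control, of the 9 mast cell genes tested and of Mcpt1l1 (square), with SE as bars (edgeR, 3 libraries per group). Granule and IgE receptor genes lie between -1.81 and -1.24, and Kit and Gata2 at -0.66 and -0.55.

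By the edgeR test 0 of the 9 members tested passed an adjusted p under 0.05, where 0.886% of the 14003 genes tested were called lower and 2.39% higher. All 9 had an unadjusted p under 0.05 with a negative fold change, where 10.6% of genes tested did. The groups did not overlap for 6 of the 9 (hormone lower), where this held for 15.3% of genes tested, and 7 of the 9 had a log2 fold change of -1 or less, where 3.01% did. The median log2 fold change was -1.42 over these 9 members and -0.0015 over all genes tested. Since the members were chosen with results of these data known, these counts are descriptions. Fcer1a and Hdc passed the filter on low counts through the controls, with 1 hormone library each over its minimum. The other 7 were over it in all libraries, all had a negative fold change and an unadjusted p under 0.05, and their median was -1.42.

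DESeq2 called 5 members lower (Cpa3, Ms4a2, Tpsb2, Tpsab1 and Gata2), where it called 3.68% of genes lower. Its adjusted p was 0.00109 for Cpa3, 0.00907 for Tpsb2, 0.0137 for Ms4a2, 0.0409 for Tpsab1 and 0.0444 for Gata2. Without control 1, edgeR called 3 members lower (Cpa3, Tpsb2 and Ms4a2), where 1.05% of genes were called lower. With any other library left out 0 passed, where the share of genes called lower was 0.0919% without control 2, 1.1% without control 3, and 0.148%, 0.0837% and 0.0906% without hormone 1, 2 and 3. Among the granule and receptor genes, the log2 fold change nearest to 0 with 1 library left out was -0.90, for Hdc without control 2, where Fcer1a was at -1.01 and 5 of the 9 members had an unadjusted p under 0.05. Without hormone 3, Cma1 and Fcer1a were at -1.04 and -1.01 and 3 of the 9 had an unadjusted p under 0.05.

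**Figure D3:**
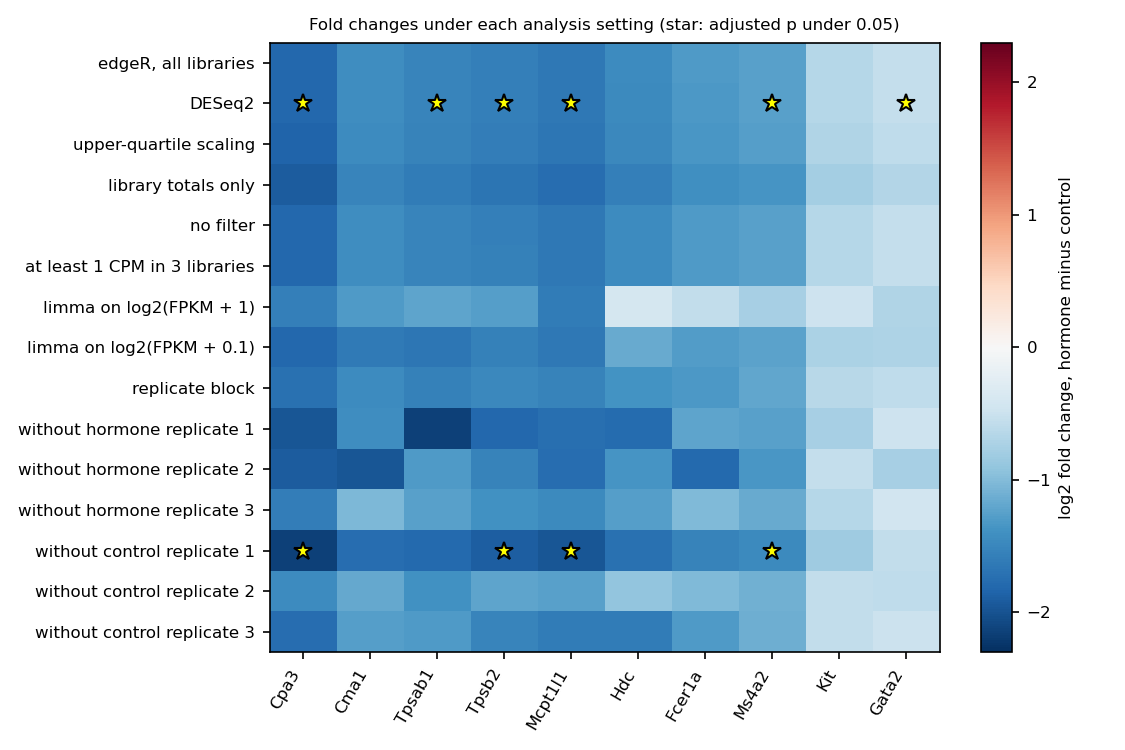
Log2 fold changes, hormone minus control (colour), of each gene tested (columns) under the edgeR fit with all libraries and under 14 other settings (rows). Stars mark an adjusted p under 0.05. Every cell is below 0, and stars stand in the rows of DESeq2 and of the fit without control 1.

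Per length, the deposited FPKM values (fragments scaled to transcript length and library total) order the members alike in both groups. Gata2 came first with 168 ± 40.9 FPKM in hormone libraries and 269 ± 11.4 FPKM in controls (SD, n = 3 each). Cpa3 followed with 3.58 ± 1.14 FPKM in hormone libraries and 13.5 ± 6.60 FPKM in controls. Cma1 had 2.92 ± 1.88 and Tpsb2 2.32 ± 0.69 FPKM in hormone libraries, against 8.43 ± 3.61 and 7.42 ± 3.47 FPKM in controls. Tpsab1, Kit and Ms4a2 had 1.64, 1.26 and 0.831 FPKM in hormone libraries and 5.07, 2.16 and 2.13 FPKM in controls. Fcer1a, Hdc and Mcpt1 came last, with 0.410, 0.204 and 0.158 FPKM in hormone libraries and 1.10, 0.611 and 0.0351 FPKM in controls. Neighbours from Cpa3 to Tpsab1 overlapped between control libraries, as did Kit and Ms4a2, Ms4a2 and Fcer1a, and Fcer1a and Hdc. Within each library, however, Tpsb2 was above Tpsab1, Ms4a2 above Fcer1a and Fcer1a above Hdc. Cpa3 was above Cma1 in every library but hormone 2. Cma1 was above Tpsb2 in every control, but not in hormone 1 and 3. Kit was above Ms4a2 in the hormone libraries and control 1, but not in control 2 and 3. Mcpt1l1, at 18.4 FPKM in hormone libraries and 61.8 FPKM in controls, stood between Gata2 and Cpa3.

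Ratios of FPKM within a library were most even for Mcpt1l1 and Cpa3. Mcpt1l1 had 5.23 ± 0.47 times the FPKM of Cpa3 in hormone libraries and 4.60 ± 0.24 times in controls (exact permutation p = 0.1, which is the lower limit of this test with 3 per group, and 0.3 adjusted over 6 ratios). The ratio of Tpsb2 to Tpsab1 was 1.60 ± 0.47 in hormone libraries and 1.44 ± 0.33 in controls (exact permutation p = 0.9). Cma1 over Cpa3 was 0.766 ± 0.36 in hormone libraries and 0.637 ± 0.06 in controls (exact permutation p = 0.8). Kit over Cpa3 was 0.340, 0.262 and 0.544 in hormone libraries 1 to 3, against 0.261, 0.122 and 0.165 in controls 1 to 3, with hormone 2 just above control 1 (exact permutation p = 0.1 unadjusted and 0.3 adjusted). Gata2 over Cpa3 averaged 49.4 in hormone libraries and 24.7 in controls (exact permutation p = 0.2), with control 1, at 41.6, inside the range of the hormone libraries. Ms4a2 over Cpa3 was 0.245 ± 0.06 in hormone libraries and 0.173 ± 0.05 in controls (exact permutation p = 0.2), and none of the 6 ratios had an adjusted p under 0.3.

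**Figure D4:**
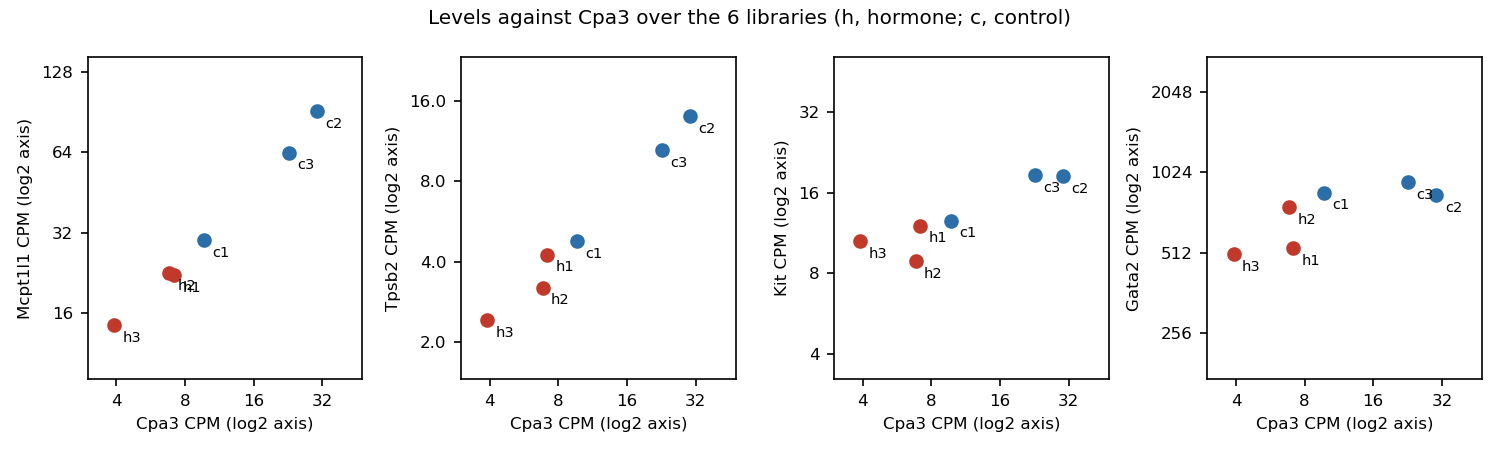
CPM of Mcpt1l1, Tpsb2, Kit and Gata2 against Cpa3 in the 6 libraries (both axes log2, same span of 16-fold for each vertical axis). Mcpt1l1 and Tpsb2 are higher where Cpa3 is higher, and Gata2 is nearly level among the controls although Cpa3 ranges from 9.70 to 30.3 CPM there.

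Among 11189 genes with an established symbol and a mean of at least 1 FPKM, Mcpt1l1 and Tpsb2 had the profiles most like Cpa3 over the 6 libraries. Pearson's r of log2 CPM with Cpa3 was 0.998 for Mcpt1l1, 0.992 for Tpsb2 and 0.977 for Ms4a2, which ranked sixth. These correlations share libraries and scaling and include the group difference. Using deviations from the group means, r was 0.992 for Mcpt1l1, 0.975 for Tpsb2 and 0.938 for Ms4a2. The rest of the first 10 were Btbd2, Alpg, Stip1, Lzts3, Rps6ka3, Ccm2 and Thrb, with r between 0.971 and 0.984. Of these Alpg had a log2 fold change of -1.55 (edgeR adjusted p = 0.0590), and the other 6 had -0.65 to -0.19. Within groups r was 0.993 for Alpg, as high as for Mcpt1l1, and 0.981 for Btbd2, above Tpsb2. By that measure a likeness to Cpa3 was not particular to mast cell genes. Members with lower r were Cma1 with 0.931, Tpsab1 with 0.921, Kit with 0.902 and Gata2 with 0.778. Within groups r was 0.874 for Cma1, 0.764 for Tpsab1, 0.693 for Kit and 0.273 for Gata2.

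Further genes of mast cell biology were taken from 9 lists of proteases, IgE receptor signalling, eicosanoids, growth factors, surface receptors, transcription factors, receptors for mast cell products and protease inhibitors. Of 107 genes tested in these lists, 2 rose and 0 fell by edgeR, namely Cx3cl1 and Itga2, where 2.39% of all genes tested were called higher and 0.886% lower. Cx3cl1, the membrane-bound chemokine fractalkine, had 88.1, 51.3 and 52.7 CPM in hormone libraries 1 to 3, against 20.4, 23.3 and 17.8 CPM in controls 1 to 3 (log2 fold change 1.64 ± 0.24, edgeR adjusted p = 0.0164). All hormone libraries were above all controls, and the call was lost without control 2 (edgeR adjusted p = 0.0639). Itga2, an integrin chain for collagen, had a log2 fold change of 1.18 ± 0.24 (edgeR adjusted p = 0.0478). Its call was lost without control 2 (0.117) and without hormone 1, 2 or 3 (edgeR adjusted p = 0.160, 0.148 and 0.137), with no filter (0.0564), with library totals only (0.0555) and with the replicate block (0.0888). With limma the Itga2 adjusted p was 0.0789 on log2(FPKM + 1) and 0.0812 on log2(FPKM + 0.1).

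Surface receptors showed both directions. Mrgprb3, a Mas-related G protein-coupled receptor, had 0.837, 1.82 and 0.547 CPM in hormone libraries 1 to 3, against 2.07, 4.92 and 4.24 CPM in controls 1 to 3, with control 1 again the lowest control. Its log2 fold change was -1.80 ± 0.51 (edgeR adjusted p = 0.103), and only DESeq2 called it (adjusted p = 0.0240). Il1rl1, the receptor for interleukin-33, had 3.03, 2.11 and 1.64 CPM in hormone libraries 1 to 3, against 2.00, 5.89 and 3.91 CPM in controls 1 to 3 (edgeR adjusted p = 0.315). In that list 1 of 19 passed, Itga2, and 8 of 19 had negative fold changes. Beside Mrgprb3, DESeq2 called Itga2 and Tlr4 of that list higher (adjusted p = 0.000963 and 0.0311). It called 5.66% of all genes higher and 3.68% lower.

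Genes that carry the signal inside the cell mostly had positive fold changes. In the IgE receptor signalling list 21 of 26 did, with a median of 0.53, where that of all genes tested was -0.0015. By edgeR 0 passed, and 12 had an unadjusted p under 0.05. For this and the other lists, such unadjusted counts cover both directions and are descriptions. Over all genes tested that share was worked out only for genes lower in hormone (10.6%). The phosphatase Inpp5d and the kinase Lyn were nearest to passing, with log2 fold changes of 1.18 ± 0.25 and 0.82 ± 0.18 (edgeR adjusted p = 0.0504 and 0.0590). With a filter of at least 1 CPM in 3 libraries Inpp5d passed (edgeR adjusted p = 0.0495), where 347 of 13460 genes were called higher. DESeq2 called 6 of that list higher (Inpp5d, Lyn, Pik3cd, Ptpn6, Vav1 and Fcer1g), where it called 5.66% of genes higher. Macrophages and lymphocytes use most of these genes too.

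The growth and survival factors were mixed. Kitlg, the ligand of Kit, had 66.0, 71.4 and 65.8 CPM in hormone libraries 1 to 3, against 128, 67.7 and 84.7 CPM in controls 1 to 3 (log2 fold change -0.46 ± 0.22, edgeR adjusted p = 0.258). Hormone 2 exceeded control 2, so the groups overlapped. Il33, an alarmin that activates mast cells, had a log2 fold change of -0.58 ± 0.31 (edgeR adjusted p = 0.308), and Il3, Il4 and Il9 had at most 1 count over all libraries. Mitf, which drives mast cell gene expression beside Gata2, had 25.1, 23.3 and 23.1 CPM in hormone libraries 1 to 3, against 6.49, 21.0 and 19.6 CPM in controls 1 to 3 (edgeR adjusted p = 0.384). All hormone libraries were above all controls, and control 1 lay far below the rest. Gata1 was listed at 0 in all libraries.

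Of 13 further listed proteases of mast cells and related cells, 5 were at 0 in all libraries, among them Mcpt4, and 3 could be tested (Mcpt1l1, Mcpt8l2 and Ctsc, 0 passed, with Mcpt1l1 the 1 with an unadjusted p under 0.05). Ctsc, cathepsin C, activates granule proteases in mast cells and many other cells. It had 2469 counts in the hormone libraries together, against 2606 in the controls (log2 fold change 0.03 ± 0.20, edgeR adjusted p = 0.947). Ctsc held the most counts of these proteases in the hormone libraries, where Mcpt1l1 had 840. In the controls Mcpt1l1 held the most, with 2912. Of 11 genes of eicosanoid synthesis tested, 0 passed (2 with an unadjusted p under 0.05), and of 7 protease inhibitors 0 passed (0 with an unadjusted p under 0.05). Among 15 transcription factors of the lineage 0 passed (3 with an unadjusted p under 0.05). Over all genes tested, edgeR called 2.39% higher and 0.886% lower. Of these lists DESeq2 called Pla2g2a, Ikzf1 and Spi1 higher and Mcpt1l1 lower, where it called 5.66% of all genes higher and 3.68% lower.

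Receptors for mast cell products did not pass, with 0 of 8 by edgeR, 3 with an unadjusted p under 0.05 and 0 by DESeq2. Of all genes, edgeR called 2.39% higher and 0.886% lower, and DESeq2 5.66% higher and 3.68% lower. Hrh2, a histamine receptor, had 0.579, 0.727 and 0.547 CPM in hormone libraries 1 to 3, against 2.07, 1.28 and 1.16 CPM in controls 1 to 3 (log2 fold change -1.26 ± 0.38, edgeR adjusted p = 0.119). Control 1 was here the highest control. Hrh2 had only 9, 10 and 7 counts in hormone libraries 1 to 3, against 29, 21 and 18 counts in controls 1 to 3. Like Fcer1a and Hdc, it passed the filter on low counts through the controls. F2rl1, a receptor that tryptase can cleave, had 32.8, 17.0 and 41.0 CPM in hormone libraries 1 to 3, against 13.1, 22.4 and 24.3 CPM in controls 1 to 3 (edgeR adjusted p = 0.347).

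Most markers of other leukocytes had positive fold changes in the same libraries. Counts of markers that passed are read against 2.39% of all genes called higher and 0.886% lower by edgeR, and 5.66% called higher and 3.68% lower by DESeq2. Marker counts with an unadjusted p under 0.05 cover both directions and are descriptions. Over all genes tested that share was worked out only for genes lower in hormone (10.6%). All 10 macrophage markers had positive fold changes (median 1.06, 0 passed by edgeR, 8 with an unadjusted p under 0.05, and Csf1r and Cd68 passed by DESeq2), and their sum was 962 to 1698 CPM in hormone libraries and 440 to 889 CPM in controls. The 6 T cell markers (median 1.01, 0 passed by edgeR or DESeq2, 3 with an unadjusted p under 0.05) summed to 58.3 to 106 CPM in hormone libraries and 28.1 to 54.2 CPM in controls. Ptprc, carried by all leukocytes, had 88.7, 50.7 and 45.0 CPM in hormone libraries 1 to 3, against 26.0, 33.6 and 23.7 CPM in controls 1 to 3 (log2 fold change 1.15 ± 0.27, edgeR adjusted p = 0.0685, DESeq2 adjusted p = 0.00286). Of the 6 general leukocyte markers 5 had positive fold changes (median 0.89, 0 passed by edgeR, 5 with an unadjusted p under 0.05, and Ptprc and Laptm5 passed by DESeq2). Their sum, at 858 to 1305 CPM in hormone libraries and 927 to 1245 CPM in controls, was mostly Cd52, the 1 marker with a negative fold change (-0.23, edgeR adjusted p = 0.592). Ptprc lay in the opposite direction to Cpa3 in the same libraries.

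Of the eosinophil markers Epx, Prg2 and Prg3 were at 0 in all libraries, while the 2 tested, Siglec5 and Ccr3, had log2 fold changes of 0.70 (edgeR adjusted p = 0.138) and 0.89 (0.452). Their 7 listed markers summed to 7.85 to 8.79 CPM in hormone libraries and 3.59 to 5.71 CPM in controls. Of the basophil markers Prss34 was at 0 in all libraries, and Il3ra had a log2 fold change of -0.41 (edgeR adjusted p = 0.238). The other basophil markers tested were Hdc and Gata2, which are mast cell members. All 10 smooth muscle markers had negative fold changes (median -0.45, 0 passed by edgeR or DESeq2, 1 with an unadjusted p under 0.05), with sums of 4635 to 6930 CPM in hormone libraries and 5146 to 10595 CPM in controls. The sum of 7 fibroblast markers (median -0.09, 0 passed by edgeR, 2 with an unadjusted p under 0.05) was 3186 to 4267 CPM in hormone libraries and 2770 to 5484 CPM in controls. Lum among them, a collagen-binding proteoglycan, had a log2 fold change of -1.18 ± 0.27 (edgeR adjusted p = 0.0596) and passed by DESeq2 (adjusted p = 0.000850) and by edgeR without control 3 (adjusted p = 0.0111).

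Other marker sets had negative medians as well. The 5 adipocyte markers tested had a median log2 fold change of -1.63, further from 0 than that of the mast cell members, with 4 of 5 negative, 0 passed by edgeR or DESeq2 and 0 with an unadjusted p under 0.05. Adipoq, the adipocyte hormone adiponectin, had 0.257, 1.02 and 2.03 CPM in hormone libraries 1 to 3, against 4.07, 11.8 and 0.257 CPM in controls 1 to 3 (edgeR adjusted p = 0.271). Control 2 was the highest library for Adipoq as for Cpa3, but control 3 was among the lowest. Of 8 Schwann cell and nerve markers 6 had negative fold changes (median -0.33, 0 passed by edgeR, 2 with an unadjusted p under 0.05), and Sox10, with -1.09 ± 0.33 (edgeR adjusted p = 0.122), passed by DESeq2 (adjusted p = 0.0459).

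The sum of 8 epithelial markers was 2670 to 3277 CPM in hormone libraries and 2078 to 2384 CPM in controls. Of these 8 markers 7 had positive fold changes (median 0.40, 5 with an unadjusted p under 0.05). DESeq2 called Krt8, Krt18 and Epcam higher (adjusted p = 6.86e-09, 0.00485 and 0.0180). By edgeR 1 rose, Krt8 (log2 fold change 0.95 ± 0.14, edgeR adjusted p = 0.0164). The edgeR call of Krt8 was lost without control 2 (edgeR adjusted p = 0.0821) and without hormone 1, 2 or 3 (edgeR adjusted p = 0.0728, 0.0758 and 0.0544). Of 8 endothelial markers 7 had positive fold changes (median 0.26, 3 with an unadjusted p under 0.05). The receptor Kdr was the 1 that rose by edgeR (log2 fold change 1.07 ± 0.21, edgeR adjusted p = 0.0444), and DESeq2 called it too (adjusted p = 0.00024). Kdr had 30.6, 29.1 and 25.0 CPM in hormone libraries 1 to 3, against 17.8, 11.4 and 11.2 CPM in controls 1 to 3. The Kdr call was lost with upper-quartile scaling (0.0526), with library totals only (0.0751), with limma (0.108 on log2(FPKM + 1) and 0.107 on log2(FPKM + 0.1)) and with any library but control 1 left out (edgeR adjusted p = 0.0723 to 0.132). The part of these cell types in the mast cell values was not tested.

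**Figure D5:**
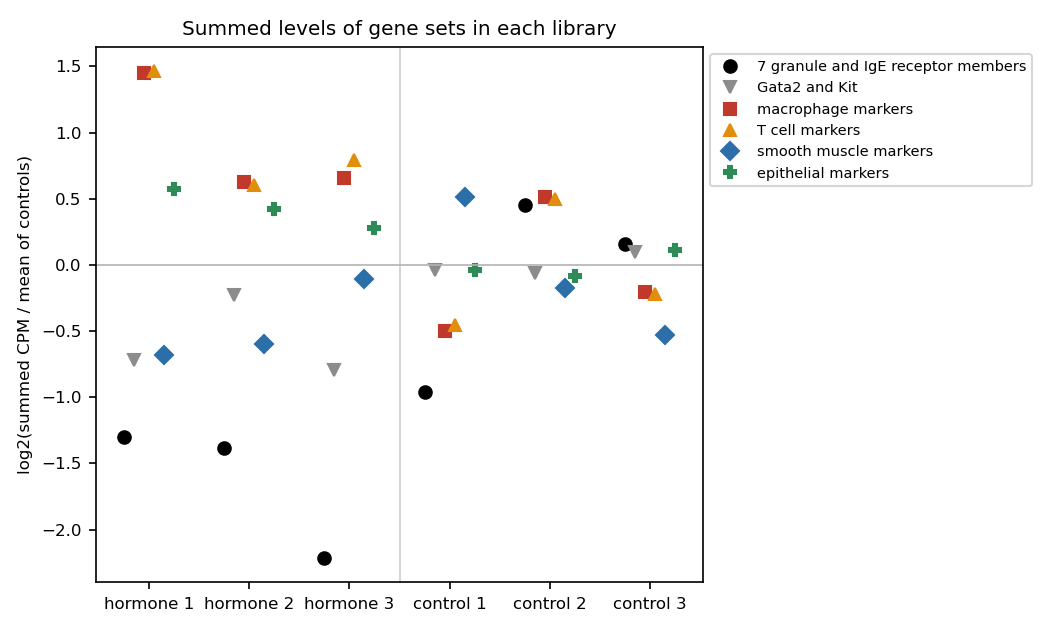
Summed CPM of gene sets in each library on a log2 scale relative to the mean of the 3 controls (0), with points shifted sideways for legibility. The 7 granule and IgE receptor genes lie lowest in every hormone library and in control 1, where they sum to 27.6 CPM. Macrophage and T cell markers each have their highest sum in hormone 1, at 1698 and 106 CPM, and lie close together there.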

How the data were processed

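RNA sequencing of 6 rat prostate tissues was analysed. Paired-end TruSeq libraries were made from column-purified total RNA, per the labels' protocols. The submitters' processing notes name the aligners TopHat and Bowtie2 and the counter HTSeq, with no version. Neither source gives the genome build, annotation, strand setting or treatment of shared reads. The authors deposited raw read counts per gene and FPKM values for the same libraries. FPKM equalled the count divided by library total and a gene constant, within 0.000518% over 9136 genes.

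Counts of 14003 genes that passed filterByExpr (minimum count 10, minimum total 15) were scaled with TMM and tested with edgeR 4.0.16 in R 4.3.3 (quasi-likelihood F-test, two-sided, no block, 4 residual degrees of freedom). The Benjamini-Hochberg adjustment ran over all of these genes, with a threshold of 0.05. Levels are TMM-scaled CPM. The SE was obtained from the log2 fold change and F. Ratios were compared with exact permutation tests, two-sided. Alternatives were DESeq2 1.42.0, other scalings and filters, limma 3.58.1 on FPKM, a replicate block and each library left out.

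Members, lists and tests were chosen with earlier results of these data known. The rule names all members, list genes that passed, the 2 next by p per list, 11 partner genes and the 10 genes most like Cpa3 (log2 CPM with prior count 2), and values are given for a part. Libraries within a group differed beyond sampling noise (chi-square per gene 22.7 to 113). On simulated data for this comparison over 14003 genes, the test called 86% of 50 genes lowered to 0.25 of their level and 46% of 50 lowered to 0.5, with 19 unchanged genes among 157 calls. Intervals and floors cover counting error only. Symbols without a matching row were not analysed here.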

Additional observations from a re-analysis of the deposited data

How the results depend on the processing

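Each of the 9 members tested and Mcpt1l1 had a negative fold change in every setting run (14 alternatives each), and 10 of these tests passed that had not passed by edgeR with all libraries (6 by DESeq2, 4 without control 1). Unfiltered, Mcpt1 had a positive and imprecise log2 fold change of 2.15 ± 1.26 (edgeR adjusted p = 0.42). The number of members called was 5 by DESeq2, 0 in the other settings with all libraries, and 0 to 3 with 1 library left out. The median of the members was -0.76 with limma on log2(FPKM + 1), where the added constant shrinks low genes, and -1.71 to -1.11 with 1 library left out. Calls among the related lists were 2 by edgeR, 2 with upper-quartile scaling, 14 by DESeq2 and 3 with the filter of at least 1 CPM in 3 libraries. They were 1 with library totals only, no filter, either limma setting or the replicate block, and 0 to 3 with 1 library left out.

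Over all genes 458 were called by edgeR, 1492 by DESeq2, 298 with limma on log2(FPKM + 1) and 64 to 463 with 1 library left out, the lowest without control 2. Of the calls 72.9% were higher by edgeR, 60.6% by DESeq2, 53.0% with library totals only and 59.4% with limma on log2(FPKM + 1). Library totals alone moved the median of all genes to -0.13 and that of the members to -1.53. The replicate block gave 308 calls and 0 members. Same-numbered libraries did not deviate together (correlations of 0.083, -0.057 and 0.070), and 2 of 6 libraries correlated best with their own number, so the numbers are not taken as pairs. Fcer1a, Hdc and Mcpt1 had few counts, with 4 to 33, 7 to 55 and 0 to 16 per library.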
